A study of Mus musculus with 6 samples.

Results

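Complex III, cytochrome c, complex IV and ATP synthase make up the end of the mitochondrial respiratory chain and the enzyme that draws on it. Their nuclear genes were taken as every row of the count table whose symbol begins with Uqcr, with Cox followed by a digit from 4 to 8, or with Atp5, plus Cyc1 and Cycs. This gave 45 of the 23282 rows, with 9 genes of complex III, 1 of cytochrome c, 18 of complex IV and 17 of ATP synthase. The genes listed under ATP synthase include Atp5s and Atp5sl, which share the symbol stem but are not core subunits. The libraries came from alveolar macrophages, which are phagocytes that reside in the air spaces. The cells were sorted from mouse lung on CD11c, SiglecF, CD45 and F4/80 and on the absence of CD11b. The 3 Sdha-KO libraries were from mice with floxed Sdha and LysM-Cre, which expresses Cre recombinase in myeloid cells from the Lyz2 locus, and the 3 WT libraries were from wildtype mice. The labels name neither age nor sex, nor whether wildtype mice carried Cre, nor whether a library held 1 mouse or a pool. P-values therefore measure the spread between libraries, part of which may be technical. Each of 3 batches held 1 library of each genotype, numbered as the replicates are.

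Succinate dehydrogenase, of which Sdha encodes the flavoprotein, is complex II and passes electrons from succinate to ubiquinone. Complex III carries them on from reduced ubiquinone to cytochrome c, and complex IV (cytochrome c oxidase) hands them to oxygen. Complexes III and IV pump protons across the inner membrane, and ATP synthase lets the protons flow back to make ATP. Some subunits of complex IV and the c ring of ATP synthase are encoded by several paralogous nuclear genes, whose use differs between tissues. The mitochondrially encoded subunits were not analysed here.

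Total counts ranged from 5400160 to 8472907 in Sdha-KO and from 5813531 to 8239600 in WT libraries. The row Rn45s alone held 20.9%, 43.4% and 48.2% of them in Sdha-KO replicates 1 to 3, against 36.3%, 57.6% and 44.7% in WT replicates 1 to 3. The batch 1 libraries stood apart. Sdha-KO replicate 1 had counts for 5438 genes and WT replicate 1 for 7893, against 11383 to 13050 in the libraries of batches 2 and 3. Among 3447 genes that reached 100 counts in the other 4 libraries, 612 had no count in Sdha-KO replicate 1 and 136 had none in WT replicate 1. Of the 3447 genes 35 were respiratory genes, and none of the 35 was at 0 in either library, although Cycs had 1 count in Sdha-KO replicate 1. Sdha had 26.1, 21.0 and 22.8 CPM (counts scaled to library size and composition) in Sdha-KO replicates 1 to 3, against 56.0, 65.5 and 72.2 CPM in WT replicates 1 to 3. All Sdha-KO libraries lay below all WT libraries, although reads near the 3' end need not come from the deleted part of the gene. The 14 alveolar macrophage markers summed to 6553 to 8422 CPM in Sdha-KO and 8040 to 9504 CPM in WT libraries, and Chil3 made up most of the sum. Of the 14 markers, 4 had a log2 fold change above 0, and Ear1, an eosinophil-associated ribonuclease gene with close paralogs, fell (log2 fold change -2.26, edgeR adjusted p = 0.0261). The sorting marker Siglecf had 0, 39.6 and 45.3 CPM in Sdha-KO replicates 1 to 3, against 103, 138 and 132 CPM in WT replicates 1 to 3. Xist, which is transcribed from the inactive X chromosome of female cells, had 224, 92.6 and 123 CPM in Sdha-KO replicates 1 to 3, against 0, 1023 and 771 CPM in WT replicates 1 to 3. The genotypes thus differed in Xist within each batch, and the part of sex in the results was not tested.

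CPM were scaled with TMM factors. The kit reads each polyadenylated transcript near its 3' end, so counts were not divided by transcript length. Of the 45 genes, 39 passed the filter on low counts and were tested. The other 6 were Cox4i2, Cox7a1, Cox7b2, Cox8b, Cox8c and Atp5s, of which Cox7b2, Cox8b and Cox8c had no count in any library.

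The largest log2 fold changes among the tested genes, down and up, were those of Cox6b2 and Uqcrq. Cox6b2, the testis isoform of a complex IV subunit, averaged 6.50 ± 5.69 CPM in Sdha-KO and 65.5 ± 5.44 CPM in WT libraries, and the small complex III subunit gene Uqcrq averaged 161 ± 58.6 CPM in Sdha-KO and 65.7 ± 11.0 CPM in WT libraries (SD, n = 3 each). By the quasi-likelihood test of edgeR, 0 of the 39 tested genes had a Benjamini-Hochberg adjusted p under 0.05 over all genes, against 5 of 9963 genes (0.0502%) in the whole table. At an unadjusted p under 0.05, 2 genes were higher in Sdha-KO (1.36% of all genes were) and 0 were lower (1.28% of all genes were). At the adjusted threshold DESeq2 called 0 of the 39 (0.181% of all genes), as did limma-voom (0.201%) and edgeR with the replicate number as a block (0%). All 3 Sdha-KO libraries lay above all 3 WT libraries for 4 of the 39 genes (5.04% of all genes did), namely Uqcrq, Cox6b1, Atp5b and Atp5c1. They lay below for 2 of the 39 (9.27% of all genes did), namely Uqcrh and Cox6b2. Taking both directions, 15.4% of the 39 genes did not overlap, near the 14.3% of all tested genes. Log2 fold changes of Sdha-KO over WT were above 0 in 26 of 39 genes, against 45% of all tested genes. Their median was 0.33, against -0.13 over all tested genes. The median was 0.35 in complex III, 0.46 in complex IV and 0.29 in ATP synthase. It was 0.07 over 44 tested genes taken for complex I, whose symbols begin with Nduf followed by a, b, c, s or v. These symbols also take in Ndufa4, a complex IV subunit gene, and any assembly factor genes named Ndufaf. Without Sdha-KO replicate 1 the respiratory genes did not stand above all tested genes. The median was then 0.05 over 42 tested respiratory genes, 22 of them above 0, against 0.06 over all 11048 genes tested, 5822 of them above 0. The median of ATP synthase was -0.07 in that fit. Without both batch 1 libraries the medians were 0.26, 0.24 and 0.02 for complexes III, IV and ATP synthase. They were 0.14 for the Nduf genes and -0.02 over all tested genes. In that fit 0 of 42 tested respiratory genes passed (0.251% of all genes).

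**Figure D1:**
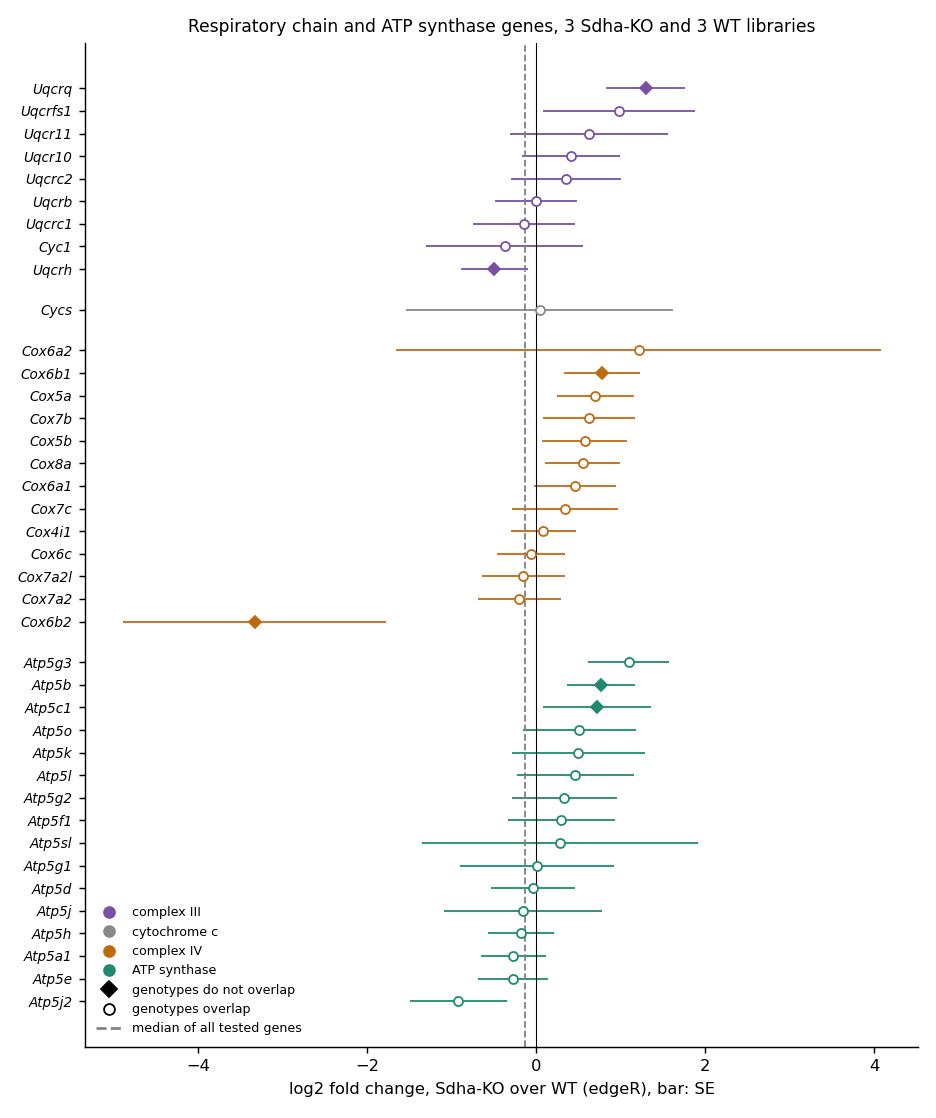
The log2 fold change of Sdha-KO over WT (horizontal axis, edgeR) with its SE is plotted for the 39 tested genes by complex. Filled diamonds mark the 6 genes (15.4%) whose genotypes did not overlap, against 14.3% of all tested genes. Cox6b2 at -3.33 lies far to the left of the others, which range from -0.92 to 1.30.

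In complex III the genotypes did not overlap for Uqcrq, which was higher in Sdha-KO, and for Uqcrh, which was lower, and they overlapped for the other 7 genes. Uqcrq (chromosome 11, 53427922 to 53430831, mm10, minus strand) encodes a small supernumerary subunit. It had 228, 122 and 133 CPM in Sdha-KO replicates 1 to 3, against 53.6, 68.6 and 74.9 CPM in WT replicates 1 to 3. The lowest Sdha-KO library was above the highest WT library, and Sdha-KO replicate 1 was far above the other 2. The log2 fold change was 1.30 (SE 0.46, edgeR adjusted p = 1.00). It was 0.84 without both batch 1 libraries (edgeR adjusted p = 0.369), and over the 17 alternatives the adjusted p ranged from 0.137 to 1.00.

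Uqcrh (chromosome 4, 116066965 to 116075071, minus strand) encodes the hinge protein, an acidic subunit that helps cytochrome c dock. It had 95.7, 136 and 151 CPM in Sdha-KO replicates 1 to 3, against 169, 167 and 203 CPM in WT replicates 1 to 3. All Sdha-KO libraries were lower than all WT libraries (log2 fold change -0.49, SE 0.39, adjusted p = 1.00). The annotation names 2 pseudogenes after Uqcrh, so its count is uncertain. Within a library the ratio of Uqcrq to Uqcrh counts does not depend on scaling. It was 2.39, 0.900 and 0.878 in Sdha-KO replicates 1 to 3, against 0.317, 0.410 and 0.369 in WT replicates 1 to 3. This ratio was chosen after the values were seen.

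Uqcrb, a further supernumerary subunit gene, averaged 86.5 ± 10.3 CPM in Sdha-KO and 86.3 ± 16.6 CPM in WT libraries (SD, n = 3 each), a log2 difference of 0.00 with an SE of 0.49. Uqcr10 had 127, 54.3 and 88.5 CPM in Sdha-KO replicates 1 to 3, against 91.7, 37.3 and 74.1 CPM in WT replicates 1 to 3. The order of the batches was the same in both genotypes for Uqcr10, with Sdha-KO the higher library in each batch. The core protein genes Uqcrc1 and Uqcrc2 had log2 fold changes of -0.14 (SE 0.61) and 0.35 (SE 0.66), the Rieske iron-sulphur protein gene Uqcrfs1 had 0.98 (SE 0.90), and the small subunit gene Uqcr11 had 0.63 (SE 0.94). Without both batch 1 libraries Uqcrc1 was at -0.57, Uqcrfs1 at 0.53 and Uqcr11 at 0.19. Exons of Uqcrc2 overlap those of Pdzd9 on the other strand.

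Both cytochrome genes varied widely between batches. Cyc1, which encodes cytochrome c1 of complex III, had 57.1, 17.9 and 40.8 CPM in Sdha-KO replicates 1 to 3, against 101, 20.6 and 28.6 CPM in WT replicates 1 to 3. The batch 1 library was the highest of its genotype in both. Cycs, which encodes the soluble carrier cytochrome c, had 0.0834, 39.6 and 51.0 CPM in Sdha-KO replicates 1 to 3, against 14.2, 40.4 and 33.4 CPM in WT replicates 1 to 3. For Cycs the batch 1 library was the lowest of its genotype, and Sdha-KO replicate 1 held 1 read. The annotation names 2 pseudogenes after Cycs. The log2 fold changes were -0.37 (SE 0.93) for Cyc1 and 0.04 (SE 1.58) for Cycs, and neither passed the test (edgeR adjusted p = 1.00 for both).

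**Figure D2:**
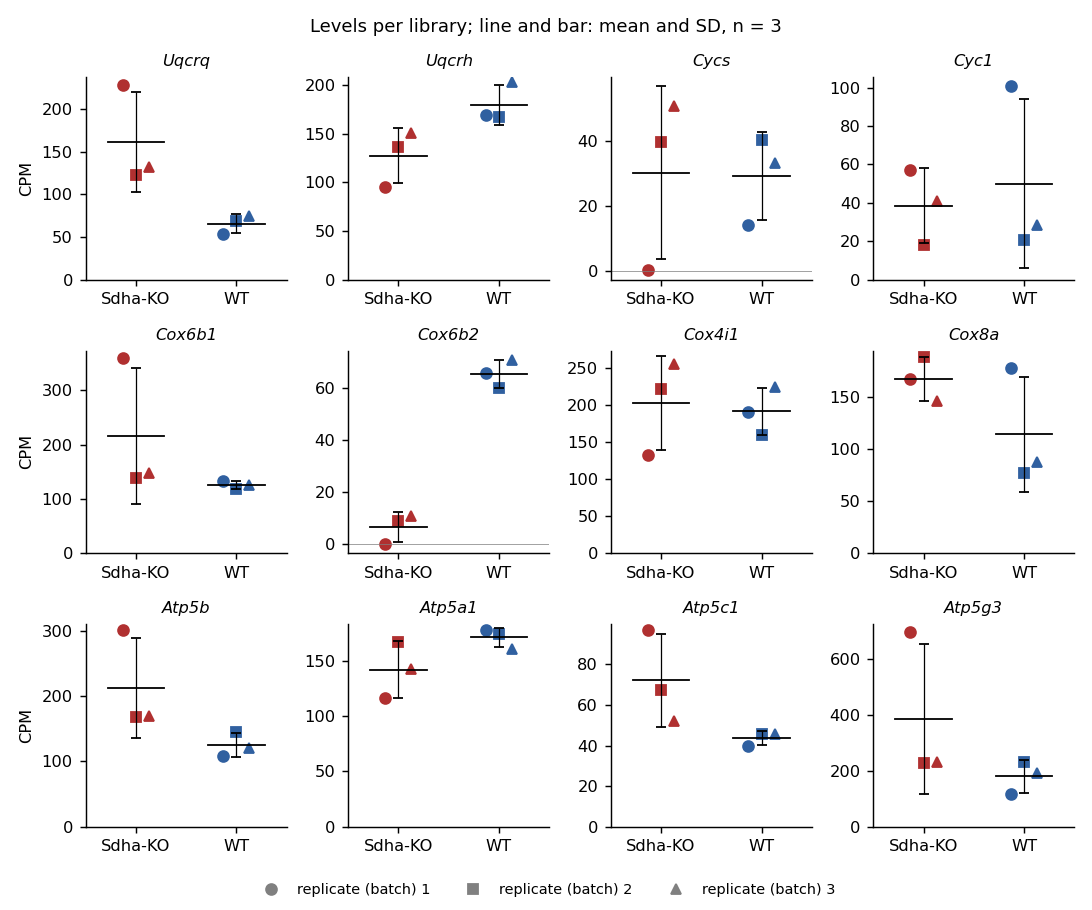
CPM (vertical axis) in each library is plotted for 12 genes, with Sdha-KO left of WT, symbols for the batches, and a line and bar for the mean and SD (n = 3). Cox6b2 lies at 59.9 to 70.8 CPM in WT and at or under 10.6 CPM in Sdha-KO, while Sdha-KO replicate 1 sets the high mean of Atp5g3.

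Complex IV held the gene with the largest difference of all 39. Cox6b2 (chromosome 7, 4751792 to 4753094, minus strand) encodes the isoform of subunit 6b best known from testis, and its paralog Cox6b1 (chromosome 7, 30616861 to 30626151, minus strand) encodes the common one. Both proteins lie on the side of the enzyme where cytochrome c binds. Promoter sequence of both genes is shown because the paralogs differed in opposite directions. It is from RefSeq (GRCm38.p6, mm10), minus strand, with capitals at the motifs found, and covers the 250 bases before the start of Cox6b2 (chr7:4753095-4753344). For Cox6b1 it covers 213 such bases (chr7:30626152-30626364), since the last 37 lie within the transcript that GENCODE gives.
Cox6b2: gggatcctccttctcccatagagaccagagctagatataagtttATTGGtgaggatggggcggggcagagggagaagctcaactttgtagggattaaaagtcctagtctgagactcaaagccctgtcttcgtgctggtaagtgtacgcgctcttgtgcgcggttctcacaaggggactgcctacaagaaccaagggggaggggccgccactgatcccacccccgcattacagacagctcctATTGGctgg
Cox6b1: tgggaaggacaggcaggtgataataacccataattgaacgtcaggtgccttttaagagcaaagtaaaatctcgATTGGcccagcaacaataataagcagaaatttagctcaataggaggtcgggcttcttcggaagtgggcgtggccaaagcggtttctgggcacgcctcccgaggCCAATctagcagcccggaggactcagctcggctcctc

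The motifs searched on both strands of the 250 bases were CCGGAAG (bound by ETS factors such as GABP), CCAAT, which reads ATTGG on the other strand, TATAAA and the palindromic motif of NRF1, a regulator of nuclear respiratory genes. Each Cox6b promoter holds 2 CCAAT boxes, and that of Cox6b1 also holds 1 ETS motif among the bases left out, and no matches overlap. Of the 35 genes with a RefSeq promoter, CCAAT was found in 20, against 37.5% of all 27025 genes with one. The ETS motif was found in 8 of 35 (7.83% of all genes) and TATAAA in 2 of 35 (14.3% of all genes). The NRF1 motif was found in 3 of 35 (0.877% of all genes), namely Atp5g2, Atp5k and Cox6a1. These are matches of letters only.

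Cox6b2 had 0, 48 and 71 counts in the 3 Sdha-KO libraries, against 537, 270 and 556 counts in the 3 WT libraries, in the order of their replicates. This was 0, 8.93 and 10.6 CPM in Sdha-KO, against 65.8, 59.9 and 70.8 CPM in WT libraries. The WT libraries lay close together, and no Sdha-KO library came near them. The log2 fold change was -3.33 (SE 1.56, edgeR adjusted p = 1.00), a fitted value that depends on how the 0 in Sdha-KO replicate 1 is treated, and it did not pass the test over all genes. Without both batch 1 libraries the log2 fold change was -2.73 (edgeR adjusted p = 0.0609). With a replicate block in those 4 libraries the edgeR adjusted p was 0.00162, the only one of 17 alternatives under 0.05 (range 0.00162 to 1.00). In that last fit 324 of 10757 genes passed (3.01%), and Cox8a was the other respiratory gene among them. With a block on 4 libraries, little was left in that fit to measure the spread between replicates.

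Cox6b1 had 360, 138 and 148 CPM in Sdha-KO replicates 1 to 3, against 133, 118 and 125 CPM in WT replicates 1 to 3. The groups did not overlap, but the Sdha-KO libraries of batches 2 and 3 were only slightly above WT (log2 fold change 0.78, SE 0.45, adjusted p = 1.00). Without Sdha-KO replicate 1 the log2 fold change was 0.19. As a share of the counts of both genes, Cox6b2 held 0% of 4311 counts in Sdha-KO replicate 1, which allows up to 0.0696% by counting error. That library also lacked reads of 612 genes abundant elsewhere, which the limit does not take into account. It held 6.07% (95% Wilson interval 4.61 to 7.95) in Sdha-KO replicate 2 and 6.69% (5.34 to 8.36) in Sdha-KO replicate 3. In WT replicates 1 to 3 it held 33.1% (30.9 to 35.4), 33.7% (30.5 to 37.0) and 36.1% (33.7 to 38.5). Intervals cover counting error only. The mean share was 4.25% ± 3.70 in Sdha-KO and 34.3% ± 1.58 in WT libraries (SD, n = 3), and within each batch it was lower in Sdha-KO.

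Summed markers of T and NK cells also did not overlap between genotypes, at 70.9 to 197 CPM in Sdha-KO and 264 to 524 CPM in WT. Nearly all of that sum was Cd2, with 135 ± 65.3 CPM in Sdha-KO and 383 ± 134 CPM in WT libraries. Cd3e, which defines T cells, had 39 counts in WT replicate 3 and none in the other 5 libraries, and 6 markers of the list had a row in the table. Of the alveolar macrophage markers, Siglecf also did not overlap (28.3 ± 24.7 CPM in Sdha-KO and 124 ± 18.6 CPM in WT libraries). Mrc1 averaged 288 ± 234 CPM in Sdha-KO and 663 ± 281 CPM in WT libraries, and Itgax averaged 209 ± 66.2 CPM in Sdha-KO and 375 ± 107 CPM in WT libraries (SD, n = 3). Marco averaged 361 ± 201 CPM in Sdha-KO and 307 ± 112 CPM in WT libraries. Chil3 averaged 4311 ± 967 CPM in Sdha-KO and 4728 ± 616 CPM in WT libraries. Of the 14 markers, 4 had a log2 fold change above 0. Summed markers of conventional dendritic cells were at 5.17 to 284 CPM in Sdha-KO and 15.8 to 44.2 CPM in WT libraries. The part of the cell content of the libraries in the Cox6b2 difference was not tested. In bulk samples fewer cells that express a gene and less RNA per cell cannot be told apart.

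**Figure D3:**
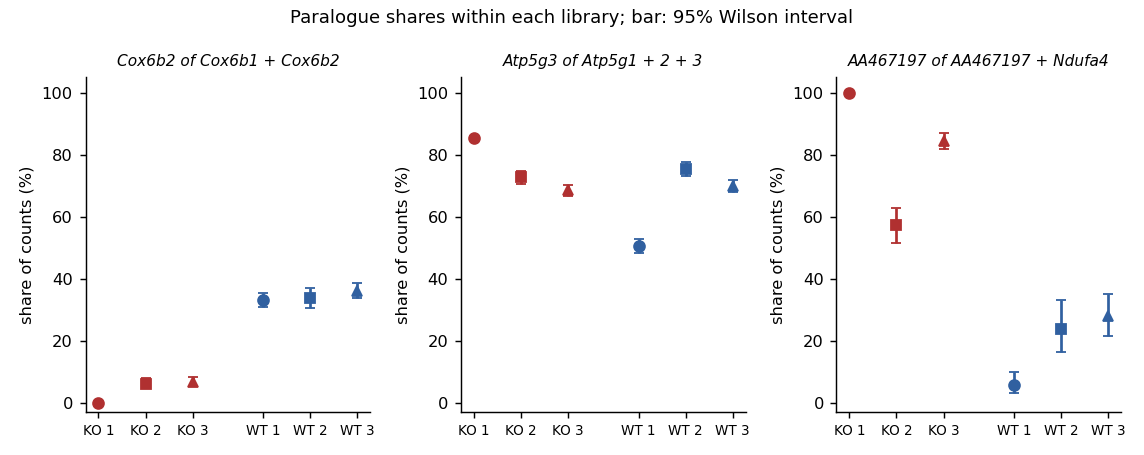
The share of counts (percent, vertical axis) that 1 gene held within its paralog group is plotted for each library with its 95% Wilson interval, with Sdha-KO libraries on the left. Cox6b2 holds 0% to 6.69% in Sdha-KO and 33.1% to 36.1% in WT libraries. The Atp5g3 shares of the genotypes overlap, and the AA467197 shares do not.

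The other isoform genes of complex IV had few or no counts, apart from Cox6a2 in Sdha-KO replicate 3. Cox4i2, the second isoform of subunit 4, had no count in any Sdha-KO library and 0, 16 and 17 counts in WT replicates 1 to 3. The heart and muscle isoform gene Cox6a2 had 0, 0 and 69 counts in the 3 Sdha-KO libraries, against 0, 9 and 19 counts in the 3 WT libraries. Cox7a1, another such isoform, had 0, 0 and 2 counts in the 3 Sdha-KO libraries, against 0, 17 and 14 counts in the 3 WT libraries. The reads of Cox6a2 in Sdha-KO came from replicate 3 alone, which had 10.3 CPM of it. The log2 fold change of Cox6a2 was 1.21 (SE 2.87). Summed muscle markers reached at most 3.16 CPM in Sdha-KO and 4.44 CPM in WT libraries, with Myh6 and Myl7 at 0 throughout. Exons of Cox6a2 overlap those of the integrin gene Itgad on the other strand, so its counts are uncertain. Cox8b, the third muscle isoform gene, had no count.

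By the mean over all 6 libraries, Cox6a1, Cox4i1 and Cox8a were the most abundant common subunit genes of complex IV beside Cox6b1, while in WT libraries alone Cox6c (126 ± 11.0 CPM) was above Cox8a (114 ± 55.4 CPM). Cox6a1 had 422, 140 and 176 CPM in Sdha-KO replicates 1 to 3, against 267, 122 and 149 CPM in WT replicates 1 to 3. Cox4i1, the common isoform of the regulatory subunit 4, had 132, 222 and 256 CPM in Sdha-KO replicates 1 to 3, against 191, 160 and 224 CPM in WT replicates 1 to 3. Sdha-KO was the higher library in each batch for Cox6a1, but for Cox4i1 only in batches 2 and 3. Without Sdha-KO replicate 1 the log2 fold change of Cox6a1 turned to -0.18, against 0.46 with all libraries. Counts of Cox4i1 are uncertain, since its exons overlap those of Emc8.

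Cox8a, the common isoform of subunit 8, had 168, 189 and 147 CPM in Sdha-KO replicates 1 to 3, against 178, 77.2 and 87.9 CPM in WT replicates 1 to 3. Only WT replicate 1 reached the Sdha-KO range. The log2 fold change was 0.55 (SE 0.45, adjusted p = 1.00), and without both batch 1 libraries it was 1.03 (edgeR adjusted p = 0.271, and 0.0392 with the replicate block, in a range of 0.0392 to 1.00 over the alternatives). Of the other tested common subunits, Cox5a, Cox5b, Cox7b and Cox7c had log2 fold changes between 0.34 and 0.70. Cox6c, Cox7a2 and the supercomplex factor gene Cox7a2l had log2 fold changes between -0.20 and -0.06. Without both batch 1 libraries Cox5b turned to -0.08 and Cox7a2l to 0.31, and Cox7b was at 0.08, against 0.62 with all libraries. The groups overlapped for all 7 of these genes.

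A further gene bears on the makeup of complex IV. NDUFA4 is a subunit of complex IV that was first assigned to complex I, and in human cells the related protein NMES1, whose mouse gene is listed here as AA467197, can take its place. AA467197 had 50.3, 31.4 and 92.1 CPM in Sdha-KO replicates 1 to 3, against 1.23, 5.10 and 5.73 CPM in WT replicates 1 to 3. Every Sdha-KO library was above every WT library. The log2 fold change was 3.85 (SE 1.34, edgeR adjusted p = 1.00). Over the 17 alternatives of the fit it ranged from 3.34 to 4.19. DESeq2 gave an adjusted p of 0.0573, and edgeR without both batch 1 libraries and with the replicate block gave 0.000993, the lowest of a range that reached 1.00. Ndufa4 had 0, 126 and 113 counts in the 3 Sdha-KO libraries, against 171, 74 and 117 counts in the 3 WT libraries, in the order of their replicates. Of the counts of both genes, AA467197 held 100%, 57.3% and 84.5% in Sdha-KO replicates 1 to 3, against 5.52%, 23.7% and 27.8% in WT replicates 1 to 3. This share was chosen after the values were seen. The absence of Ndufa4 reads in Sdha-KO replicate 1 falls among the many genes with no count there.

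In ATP synthase the main F1 subunits differed in direction, and none passed the test. The 3 genes that form the core of F1 are Atp5a1 (alpha), Atp5b (beta, which carries the catalytic sites) and Atp5c1 (gamma, the rotating shaft). Atp5b (chromosome 10, 128083273 to 128090391, plus strand) had 301, 168 and 169 CPM in Sdha-KO replicates 1 to 3, against 109, 145 and 121 CPM in WT replicates 1 to 3. All Sdha-KO libraries were above all WT libraries (log2 fold change 0.77, SE 0.40, edgeR adjusted p = 1.00). The log2 fold change of Atp5b was 0.44 without Sdha-KO replicate 1 and 0.35 without both batch 1 libraries.

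Atp5c1 had 97.1, 67.5 and 52.0 CPM in Sdha-KO replicates 1 to 3, against 39.8, 45.7 and 45.7 CPM in WT replicates 1 to 3. The groups did not overlap, with a small gap between Sdha-KO replicate 3 and the WT libraries (log2 fold change 0.72, SE 0.64, adjusted p = 1.00, and 0.40 on the log2 scale without both batch 1 libraries). Atp5a1 had 116, 167 and 142 CPM in Sdha-KO replicates 1 to 3, against 178, 174 and 161 CPM in WT replicates 1 to 3. Sdha-KO was the lower library in each batch, although the ranges overlapped (log2 fold change -0.27, SE 0.38). The ratio of Atp5b to Atp5a1 counts was 2.60, 1.01 and 1.19 in Sdha-KO replicates 1 to 3, against 0.611, 0.834 and 0.751 in WT replicates 1 to 3. This ratio, chosen after the values were seen, did not overlap between genotypes. Exons of Atp5a1 overlap those of Haus1 on the other strand, and the annotation names 1 pseudogene after Atp5c1. The small F1 subunit genes Atp5d (delta) and Atp5e (epsilon) had log2 fold changes of -0.04 (SE 0.50) and -0.27 (SE 0.42), which turned to 0.30 and 0.02 without both batch 1 libraries.

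The c ring, through which protons pass, is built from 1 protein that 3 genes encode. Atp5g3 supplied most of their reads, with 697, 228 and 233 CPM in Sdha-KO replicates 1 to 3, against 116, 233 and 193 CPM in WT replicates 1 to 3. It was 1 of the 2 respiratory genes with an unadjusted p under 0.05 (log2 fold change 1.10, SE 0.48, edgeR adjusted p = 1.00), but this rested on Sdha-KO replicate 1. Without that library the log2 fold change was 0.36, and without both batch 1 libraries it was 0.13. Atp5g2 averaged 65.1 ± 11.0 CPM in Sdha-KO and 51.7 ± 4.54 CPM in WT libraries, and Atp5g1 averaged 39.3 ± 10.4 and 39.1 ± 15.6 CPM in Sdha-KO and WT libraries (SD, n = 3). Atp5g3 held 85.4%, 72.6% and 68.4% of the counts of the 3 genes in Sdha-KO replicates 1 to 3, against 50.6%, 75.5% and 69.8% in WT replicates 1 to 3. In batches 2 and 3 the share of Atp5g3 was thus slightly lower in Sdha-KO than in WT, while in batch 1 it was higher.

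Of the peripheral stalk genes, Atp5h (subunit d) was the most abundant in WT and had 227, 123 and 163 CPM in Sdha-KO replicates 1 to 3, against 212, 164 and 207 CPM in WT replicates 1 to 3. Sdha-KO was the higher library in batch 1 and the lower one in batches 2 and 3. The stalk genes Atp5f1 (b), Atp5j (F6) and Atp5o (OSCP) had log2 fold changes of 0.30 (SE 0.63), -0.16 (SE 0.94) and 0.51 (SE 0.67). Their exons overlap those of genes on the other strand. In all, 13 of the 45 genes share exonic positions with another annotated gene. Of the membrane subunit genes, Atp5j2 (f) had 25.7, 82.4 and 160 CPM in Sdha-KO replicates 1 to 3, against 166, 153 and 189 CPM in WT replicates 1 to 3. Sdha-KO was lower in each batch for Atp5j2, but Sdha-KO replicate 3 overlapped with WT (log2 fold change -0.92, SE 0.58, adjusted p = 1.00). Atp5k (e) and Atp5l (g) had log2 fold changes of 0.50 (SE 0.79) and 0.46 (SE 0.69), and the annotation names pseudogenes after both. Without both batch 1 libraries the log2 fold change of Atp5k turned to -0.72 and that of Atp5o to -0.27. Sdha-KO replicate 1 had 151 CPM of Atp5k and 320 CPM of Atp5o, far above the other libraries of its genotype. Atp5sl and Atp5s share the symbol stem but are not core subunits, and RefSeq lists them as Dmac2 and Dmac2l. Atp5sl had 49.3, 4.46 and 14.2 CPM in Sdha-KO replicates 1 to 3, against 33.6, 4.66 and 17.6 CPM in WT replicates 1 to 3 (log2 fold change 0.28, turned to -0.24 without both batch 1 libraries). Atp5s had at most 2 counts in a Sdha-KO and 20 counts in a WT library.

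The genotypes did not separate in the proportions of the 3 complexes. Complex III held 16.6%, 19.0% and 18.9% of the counts of all 45 genes in Sdha-KO replicates 1 to 3, against 18.0%, 17.6% and 19.1% in WT replicates 1 to 3. Complex IV averaged 38.3% ± 0.742 in Sdha-KO and 37.2% ± 1.85 in WT libraries, and ATP synthase averaged 42.7% ± 2.77 in Sdha-KO and 43.7% ± 1.80 in WT libraries (SD, n = 3). The ranges overlapped in all 3 shares. The 45 genes together summed to 5299, 3542 and 3789 CPM in Sdha-KO replicates 1 to 3, against 3775, 3332 and 3538 CPM in WT replicates 1 to 3. Sdha-KO replicate 1 was far above the rest, and Sdha-KO replicate 2 lay within the WT range. As a share of all reads outside the rows Rn45s, Rn4.5s and Lars2, the 45 genes held 0.774% ± 0.209 in Sdha-KO and 0.650% ± 0.0327 in WT libraries.

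Within batches, Sdha-KO was the higher library in 22 of 39 genes in batch 1, 22 in batch 2 and 25 in batch 3. This is 56.4%, 56.4% and 64.1% of them, against 29.9%, 47.0% and 48.7% of all tested genes, with the widest gap in batch 1. In the shares over all tested genes, here and below, a gene with no count in either library of a batch is not higher. Counts were found for 5438 genes in Sdha-KO replicate 1 and 7893 in WT replicate 1. The part of genes without counts in these shares was not tested. Sdha-KO was higher in all 3 batches for 11 of the 39 genes (11.4% of all genes were) and lower in all 3 for 4 (19.9% of all genes were). The 4 lower genes were Uqcrh, Cox6b2, Atp5a1 and Atp5j2. The median within-batch difference of the 39 genes on the log2(CPM + 1) scale was 0.18, 0.11 and 0.19 in batches 1 to 3, against -0.08, -0.09 and -0.03 over all tested genes.

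**Figure D4:**
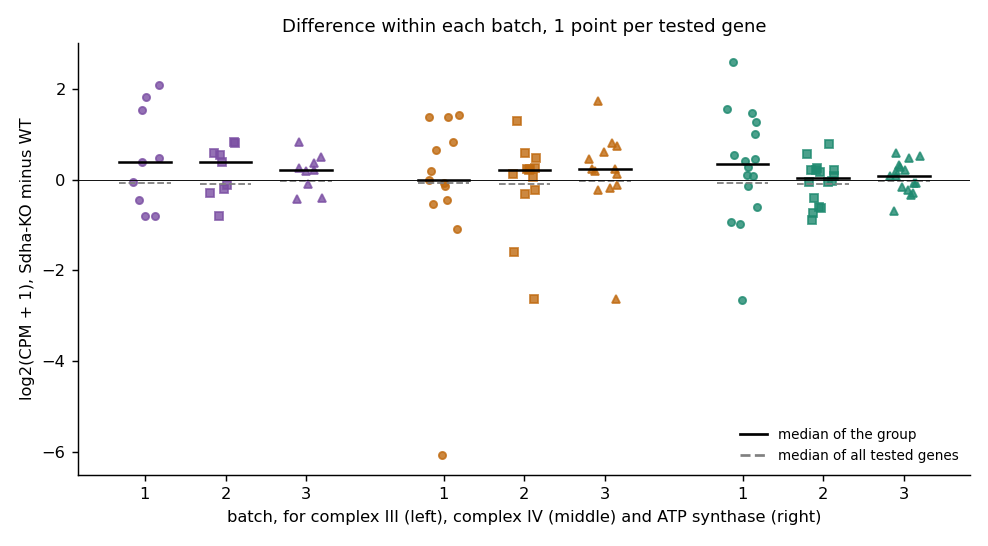
The difference of log2(CPM + 1) between the Sdha-KO and the WT library of a batch (vertical axis) is plotted for each tested gene of complex III, complex IV and ATP synthase, with the median of the group as a solid line and of all tested genes as a dashed line. The medians of the 3 complexes lie between 0 and 0.39, and the lowest complex IV point of each batch is Cox6b2.

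Genes that build or regulate these complexes gave few differences, and none passed the test over all genes. Of the complex III assembly list, 3 of 6 tested genes had a log2 fold change above 0 (median -0.04), and of the complex IV assembly and copper delivery list 14 of 26 did (median 0.22). Of 6 tested genes for ATP synthase assembly, its inhibitor and its associated subunits, 2 were above 0 (median -0.05). Nuclear regulators of respiratory genes were above 0 in 6 of 13 (median -0.11), carriers of adenine nucleotides and phosphate in 4 of 6 (median 0.21), and hypoxic or alternative subunits, among them AA467197, in 3 of 4 (median 0.75). Complex II genes, Sdha itself included, were above 0 in 3 of 7 (median -0.04). The medians of these lists moved with the fit. With the replicate block they were -1.49, -0.13, -0.15, -0.69, -0.30, -0.28 and 0.05 in the order given, against -0.48 over all tested genes. Without both batch 1 libraries they were 0.69, 0.18, -0.04, -0.10, 0.59, 0.77 and 0.60, against -0.02 over all tested genes.

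For 1 of 6 complex III assembly genes and 2 of 26 complex IV assembly genes all Sdha-KO libraries lay below all WT libraries, near the 9.27% of all genes for which they did. Hccs, the enzyme that attaches heme to cytochromes c and c1, had 0, 9.86 and 7.90 CPM in Sdha-KO replicates 1 to 3, against 39.8, 22.9 and 20.0 CPM in WT replicates 1 to 3. Cox19, which takes part in copper delivery to complex IV, had 0, 0.372 and 2.24 CPM in Sdha-KO replicates 1 to 3, against 25.0, 14.6 and 15.2 CPM in WT replicates 1 to 3. The assembly factor gene Pet100 had 7.18, 22.9 and 25.5 CPM in Sdha-KO replicates 1 to 3, against 49.4, 45.9 and 52.5 CPM in WT replicates 1 to 3. In all 3 genes the Sdha-KO libraries were below the WT libraries, and Sdha-KO replicate 1 was the lowest library. Their log2 fold changes were -2.22 (SE 2.05), -4.38 (SE 2.42) and -1.41 (SE 1.09), with an edgeR adjusted p of 1.00 each. In the same lists Bcs1l, whose protein inserts the Rieske subunit into complex III, had 49.7, 11.3 and 11.5 CPM in Sdha-KO replicates 1 to 3, against 21.9, 0 and 5.73 CPM in WT replicates 1 to 3. Slirp, which encodes a protein that binds mitochondrial mRNA, had 191, 37.7 and 46.8 CPM in Sdha-KO replicates 1 to 3, against 58.2, 31.7 and 35.5 CPM in WT replicates 1 to 3. Both were higher in Sdha-KO in each batch, and the ranges overlapped (log2 fold changes 1.39, SE 2.02, and 1.14, SE 0.74). Of the regulators, Tfb2m, a mitochondrial transcription factor, had 0, 0.558 and 1.04 CPM in Sdha-KO replicates 1 to 3, against 13.6, 4.22 and 3.82 CPM in WT replicates 1 to 3 (log2 fold change -3.73, SE 2.58). Gabpb1 had 0, 0 and 7.01 CPM in Sdha-KO replicates 1 to 3, against 27.9, 7.10 and 7.77 CPM in WT replicates 1 to 3 (log2 fold change -2.61, SE 2.56). These were the 2 of 13 tested regulators with all Sdha-KO libraries below all WT libraries (9.27% of all genes were).

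Of the carriers, the outer membrane channel gene Vdac2 had 193, 167 and 138 CPM in Sdha-KO replicates 1 to 3, against 130, 87.9 and 80.7 CPM in WT replicates 1 to 3 (log2 fold change 0.74, SE 0.42, adjusted p = 1.00). All Sdha-KO libraries were above all WT libraries. The adenine nucleotide translocase gene Slc25a5 averaged 101 ± 43.3 CPM in Sdha-KO and 62.2 ± 26.0 CPM in WT libraries. The phosphate carrier gene Slc25a3 averaged 184 ± 35.2 CPM in Sdha-KO and 143 ± 7.55 CPM in WT libraries (SD, n = 3). Sdha-KO was the higher library in each batch for both carriers, but the genotypes overlapped.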

How the data were processed

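Per the labels, the libraries were made from total RNA of sorted cells with a QuantSeq 3' kit. The values deposited by the authors are raw read counts, with 1 row per gene symbol and 1 column per library. Bowtie2, bedtools and mm10 are named in the submitters' processing notes. Their versions, the gene annotation, strand use and the handling of multiply matched reads were not stated, so antisense overlap and pseudogenes make some counts uncertain. An unspliced aligner can lose reads across junctions. No molecular identifiers are mentioned, so intervals cover counting error only.

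Genotype, as the only term, was fitted to the counts of all 6 libraries with edgeR 4.0.16 (R 4.3.3), using filterByExpr (minimum count 10), TMM scaling and the robust quasi-likelihood F-test. Benjamini-Hochberg adjustment covered 9963 tested genes, with a threshold of 0.05. The SE is the absolute log2 fold change over the square root of F. On simulated data the fit called genes with a large change at a low spread between replicates. It called none where every gene had the common spread of these 6 libraries. Real genes differ in spread, so the simulation does not give the power for the respiratory genes. A missed threshold does not show that levels were alike. Alternatives were DESeq2 1.42.0, limma-voom (limma 3.58.1), a replicate block, other scalings and filters, summed repeated symbols, and fits without each library or both batch 1 libraries. The 3-count limit of a count of 0 equals 0.25 to 0.666 CPM.

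Replicate numbers equal the batch numbers of the labels and therefore pair the samples. Same-numbered libraries' deviations from group means correlated at 0.155, 0.117 and 0.126 across genes, and others at -0.152 to 0.111.

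The respiratory genes, pathway lists, alternatives and naming rule were chosen with earlier results of these data known. The rule gave full values for the 4 most abundant genes of each complex, Cycs, Cyc1, genes with an unadjusted p under 0.05 or no overlap between genotypes, and paralogous isoform genes. It also gave up to 3 genes per pathway list, not all of which are described. Atp5j2 and Cd2 were chosen after their values were seen. A row of the ATP synthase list that RefSeq names Rbis was removed after its values were seen. Coordinates and exon overlaps are from GENCODE M21 (mm10), which lists 44 of the 45 symbols, and promoters from RefSeq (GRCm38.p6).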

Additional observations from a re-analysis of the deposited data

How the results depend on the processing

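The number of genes called in the whole table (5) depended strongly on the setting. It was 0 with the replicate block, which pairs the libraries by batch, and with the stricter filter. It was 9 with library totals alone, 48 with no filter, 18 with DESeq2, 20 with limma-voom, 27 without both batch 1 libraries and 324 without them and with the replicate block, and it ranged from 0 to 13 when 1 library was left out. The last of the named fits called 2 of 42 tested respiratory genes (Cox6b2 and Cox8a), or 4.76%, against 3.01% of all genes. It also called 2 pathway genes (AA467197 and Sdha). Having both batch and genotype fitted on 4 libraries, it had little left to measure the spread between replicates. The other 16 alternatives called 0 respiratory and 0 pathway genes.

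The median log2 fold changes of all respiratory genes, complex III, complex IV and ATP synthase (0.33, 0.35, 0.46 and 0.29) were 0.061, 0.17, 0.30 and 0.053 with the replicate block and 0.57, 0.51, 0.80 and 0.59 with library totals alone, which moved the median of all tested genes from -0.13 to 0.05. With limma-voom the first 3 were 0.23, 0.059 and 0.23. The median of all tested genes moved as well, to -0.48 with the replicate block and to -0.65 with limma-voom. In both fits the median of all respiratory genes stayed above it. Without both batch 1 libraries the medians of all respiratory genes, complex IV and ATP synthase were 0.17, 0.24 and 0.024, and with the block added the 4 medians were 0.14, 0.17, 0.047 and 0.012. Leaving out 1 library gave ranges of 0.050 to 0.29, 0.077 to 0.48, -0.087 to 0.34 and -0.072 to 0.38. The log2 ratio of summed levels under library totals was 0.53 for complex III, 0.59 for complex IV and 0.57 for all genes.

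No respiratory gene passed the main test, so those whose direction turned had not passed it either. Among respiratory genes given by log2 fold change alone, Cox5b, Cox7a2l, Atp5d, Atp5e, Atp5k, Atp5o and Atp5sl turned without both batch 1 libraries, with the values given above. Cycs was at -1.22 with the block, -2.99 with limma-voom and -0.57 to 0.63 with 1 library left out. Cox6a2 was at -0.82 with the block, -0.98 with limma-voom, -0.96 without batch 1 and with the block, and -6.50 to 1.82 with 1 library left out. Uqcrb and Atp5g1, both near 0, were at -0.0055 and -0.0027 with RLE factors, -0.0053 and -0.0027 with DESeq2, -0.029 and -0.032 without Rn45s, Rn4.5s and Lars2, and -0.14 to 0.13 and -0.24 to 0.38 with 1 library left out. Atp5h was at 0.14 with library totals and -0.44 to 0.014 with 1 library left out. Cox4i1 was at -0.088 with limma-voom and -0.12 to 0.32 with 1 library left out, and Cox6a1 at -0.18 to 0.86. Cyc1 was at 0.26 without batch 1, 0.17 with the block added and -0.77 to 0.64 with 1 library left out. The cause of these changes was not tested.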
